A study of Mus musculus with 9 samples.

Results

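Complement genes and their regulators were followed in kidney RNA of mice that lack the clock transcription factor Bmal1 and of wild-type mice. Of 9 gene symbols chosen as members, 8 had a row among the 23282 symbols of each table: C3, C4b, Cfb, Cfd, Cfi, Cd55, Cd46 and Cd59a. The ninth, C1s, had no row under that symbol, and the RefSeq gene table gives C1s as an older name of C1s1, whose values are given in its place. The groups were 4 wild-type libraries and 5 libraries of genotype Bmal1 -/-, all from kidney of the C57BL/6 strain, each made from 500 ng of total RNA. The labels do not give age, sex, the hour of sampling, the part of Bmal1 that was deleted or whether a Cre line was used, and nothing in them states 1 animal per library. The p-values therefore reflect library-to-library spread, which may be technical.

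Complement is a cascade of plasma and cell-surface proteins that tags and lyses microbes and damaged cells. It starts from C1q with the proteases C1r and C1s, from mannose-binding lectins, or from the alternative pathway, in which factor B (Cfb), cut by factor D (Cfd), joins activated C3 to form the enzyme that cuts more C3. Host cells restrain it with factor I (Cfi), a protease that cuts activated C3 and C4, with the membrane proteins CD55, which speeds the decay of the C3-cutting enzymes, and CD46, a cofactor of factor I, and with CD59, which blocks the membrane attack complex. The kidney is a known site of local complement synthesis and of complement injury.

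Library preparation sampled the 3′ ends of transcripts. Values are log2(x + 1), where x, judged by its values, is a read number already adjusted for library size; x summed to 11765219 to 13486444 per library, and the raw depth is unknown. Arntl, which encodes Bmal1, lay at 6.26 to 7.06 in wild type and 5.65 to 5.99 in knockout, and a 3′ tag outside the deleted part would still be read, so this does not check the labels. The kidney tubule markers Slc34a1 and Umod were at 13.05 or higher in every library. Testing with limma was limited to the 13481 genes with 4 or more libraries reaching an x of 10. Of these 831 (6.16%) rose in knockout and 1106 (8.20%) fell at an adjusted p under 0.05, 14.4% in all, around a median log2 fold change of 0.0002. The split depended on scaling: upper-quartile scaling gave 1052 higher and 845 lower, scaling to the total 992 and 756, and scaling to the total without the ribosomal RNA Rn45s 1272 and 695. None of these changed a call among the members. Of the 8 members 7 were tested, and 2 rose (Cfi and Cd59a), 2 fell (Cfb and Cd55) and 3 did not pass (C3, C4b and Cfd); the median log2 fold change of the 7 was 0.50. Cd46 was below the filter.

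The promoters of Cd55, its neighbour Cd55b and Cd59a are shown because Cd55 and Cd59a, both membrane inhibitors, were called in opposite directions and Cd55b is a copy of Cd55. Sequences are those of RefSeq, build GRCm38.p6, from 250 bases before to 50 after the gene start, written 5′ to 3′ along the gene. They lie at chr1:130462695-130462994 (minus strand), chr1:130422994-130423293 (minus strand) and chr2:104095551-104095850 (plus strand). Capitals mark the longest run that the Cd55 and Cd55b promoters share, 24 bases, and in Cd59a the match to an interferon response element core (GAAA, any 2 bases, GAAA).
Cd55: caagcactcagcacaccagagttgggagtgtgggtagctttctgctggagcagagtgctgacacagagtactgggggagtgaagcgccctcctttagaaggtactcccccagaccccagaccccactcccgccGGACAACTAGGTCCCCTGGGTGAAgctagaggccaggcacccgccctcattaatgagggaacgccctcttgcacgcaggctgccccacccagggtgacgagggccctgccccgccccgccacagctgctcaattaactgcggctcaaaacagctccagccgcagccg
Cd55b: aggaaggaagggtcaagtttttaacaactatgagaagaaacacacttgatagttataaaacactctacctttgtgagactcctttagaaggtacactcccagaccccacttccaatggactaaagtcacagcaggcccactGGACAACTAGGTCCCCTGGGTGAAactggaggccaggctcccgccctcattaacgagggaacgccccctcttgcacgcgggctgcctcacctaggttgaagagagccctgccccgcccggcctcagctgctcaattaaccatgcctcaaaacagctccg
Cd59a: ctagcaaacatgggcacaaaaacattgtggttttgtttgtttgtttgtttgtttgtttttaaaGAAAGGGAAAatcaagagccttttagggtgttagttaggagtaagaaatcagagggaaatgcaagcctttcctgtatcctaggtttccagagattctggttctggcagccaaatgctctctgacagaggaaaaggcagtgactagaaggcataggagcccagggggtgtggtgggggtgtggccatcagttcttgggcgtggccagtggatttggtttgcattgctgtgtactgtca
In a global alignment of the Cd55 and Cd55b promoters, 225 of 333 columns were identical (67.6%). The E-box CACGTG, the usual site of Bmal1 and its own reverse complement, was searched in 32851 promoters of this length, and 7.15% hold it. None of the 5 member promoters in the RefSeq table (C3, Cd46, Cd55, Cd59a and Cfd) has these letters, and among 44 listed complement genes with an entry only C1rl does. The interferon core, searched on both strands, is in 3.44% of promoters. It is not particular to Cd59a: the member Cd46 holds it too, as do Colec11 and Vtn among the other listed complement genes. A match is a description of letters, and its absence in this window says nothing of binding elsewhere.

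**Figure D1:**
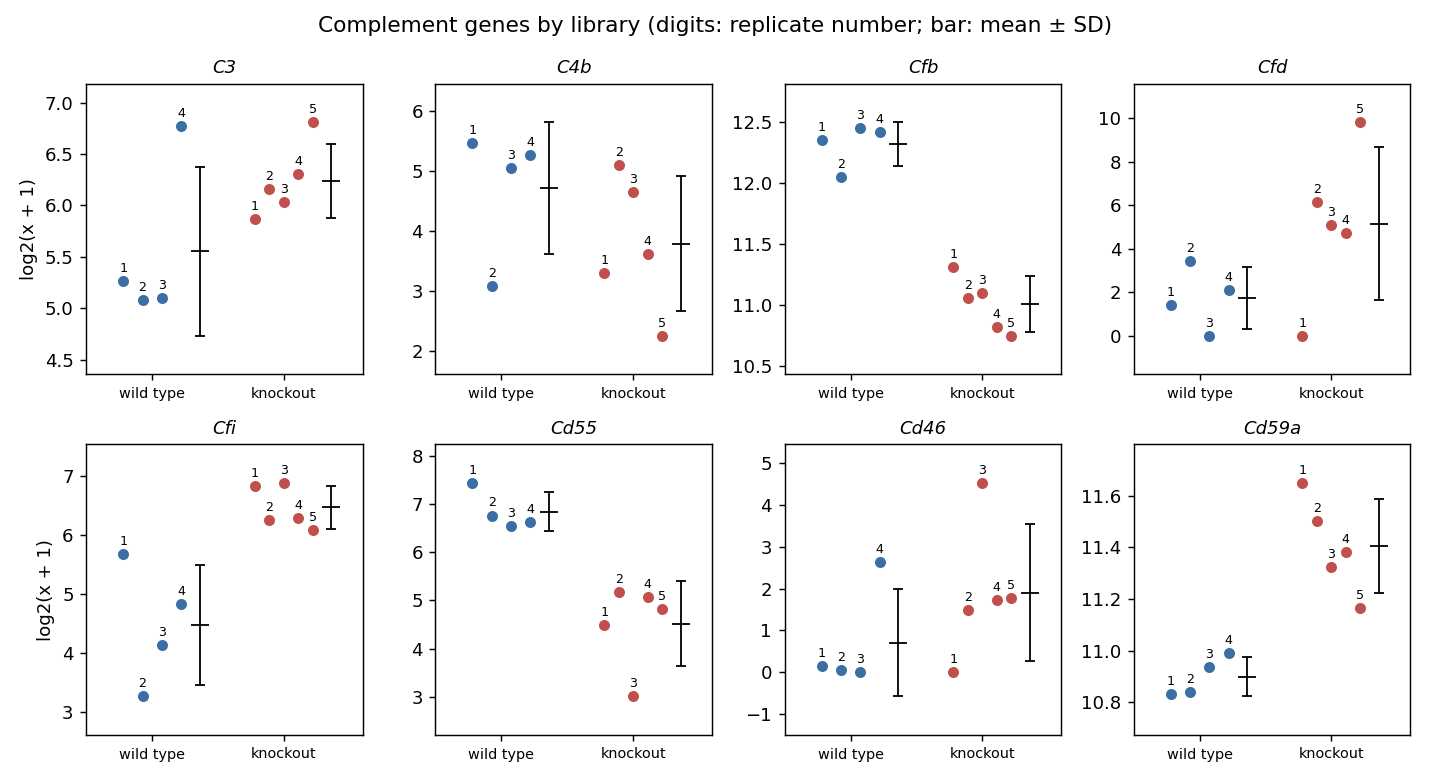
Level of each complement gene, log2(x + 1), in the 4 wild-type (blue) and 5 knockout (red) libraries; digits are replicate numbers and bars the mean ± SD. Genotypes do not overlap in Cfb, Cfi, Cd55 and Cd59a, while Cfd spans 0 to 9.81 within knockout.

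Factor B mRNA fell by more than the spread between libraries. Cfb (chromosome 17, 34856374 to 34862518, minus strand, GRCm38) measured 12.36, 12.05, 12.45 and 12.42 across the 4 wild types, against 11.32, 11.06, 11.10, 10.82 and 10.75 across the 5 knockouts. All 5 knockouts lay below all 4 wild types, with the highest knockout 11.32 and the lowest wild type 12.05. The log2 fold change was -1.31 (SE 0.12, limma adjusted p = 6.67e-07), a level 2.48-fold lower. In bulk RNA, here as for every gene, fewer cells of a type and less RNA per cell cannot be told apart. Over all tested genes, 8.46% were lower in every knockout than in any wild type and 5.86% were higher in every knockout. Exons of Cfb overlap the protein-coding gene Gm20547 on the same strand over 2246 bases, so reads of the 2 cannot be told apart there. The overlap does not cover the 3′ end of Cfb. Exons of C2 overlap the same gene over 1656 bases, also without covering the 3′ end.

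C3 is the protein on which all activation routes meet. Its gene (chromosome 17, 57203970 to 57228136, minus strand) measured 5.26, 5.08, 5.10 and 6.78 across the 4 wild types, against 5.87, 6.16, 6.03, 6.30 and 6.81 across the 5 knockouts. Wild type 4 lay within the range of the knockouts and the other wild types lay below them. The fitted log2 change was 0.68 (SE 0.32, 95% interval 0.0008 to 1.36), which did not pass (limma adjusted p = 0.181). Without wild type 4 it was 1.09 with an adjusted p of 0.0134, the only alternative of 22 in which C3 passed.

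C4b, the C4 of the classical and lectin routes, varied widely within each genotype and did not pass. The gene (chromosome 17, 34728380 to 34743882, minus strand) measured 5.47, 3.09, 5.06 and 5.27 across the 4 wild types, against 3.31, 5.11, 4.65, 3.63 and 2.26 across the 5 knockouts, with wide overlap. Its log2 fold change was -0.93 (SE 0.59, 95% interval -2.16 to 0.30, limma adjusted p = 0.330). C4a, a near-identical copy, was below the filter at 1.43 to 4.63, and the authors' treatment of reads shared between the copies is not given in the sources used here.

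Factor D, also called adipsin, is the protease that activates factor B and a major product of fat cells. Cfd (chromosome 10, 79890853 to 79892655, plus strand) measured 1.42, 3.42, 0 and 2.10 across the 4 wild types, against 0, 6.14, 5.095, 4.70 and 9.81 across the 5 knockouts. Knockout 1 was at 0 like wild type 3, and the other 4 knockouts lay above every wild type. In x this is 0 to 9.67 in wild type, 0 in knockout 1, 24.9 to 69.5 in knockouts 2 to 4 and 898 in knockout 5. The gene passed the filter only through knockout libraries. Its log2 fold change was 3.41 (SE 1.26, 95% interval 0.76 to 6.07), which did not pass (limma adjusted p = 0.0810). Without knockout 1 it was 4.70 (adjusted p = 0.00185), without knockout 5 it was 2.25 (0.210), and without knockouts 2 and 5 together, an alternative chosen after seeing the data, 1.53 (0.516).

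Several markers of fat cells were, like Cfd, highest in knockout 5 and next highest in knockout 2, but not every marker on the list followed Cfd over the other libraries. Adipoq (adiponectin) was at 9.06 in knockout 5, 6.44 in knockout 2, 4.69 in knockout 4, 2.82 in knockout 3 and 0 in knockout 1, and at 0.54, 2.69, 0 and 1.13 in wild type. Ucp1, the uncoupling protein of brown fat, was at 10.29 in knockout 5 and 7.003 in knockout 2, and at most 2.60 in the other libraries. In wild type 3, where Cfd was at 0, Adipoq, Plin1, Cidec, Lep, Retn, Cidea and Ucp1 were at 0, and in knockout 1 Adipoq, Cidec, Lep, Retn and Ucp1 were at 0. Reads were present for all 9 listed adipocyte markers in knockouts 2 and 5, for 4 in knockout 1 and for 2 in wild type 3. The summed level of the list was 118.1 to 229.1 per 1000000 adjusted reads in wild type and 150.8 to 1056 in knockout. Fabp4 and Car3, read in every library, made up most of it; without them the sums were 0 to 1.01 and 0.186 to 287. Car3 was higher in wild types 1 and 2 (9.04 and 8.98) than in knockouts 2, 3 and 4 (8.44, 7.74 and 7.62), and Fabp4 was higher in wild types 1 and 2 (11.05 and 11.33) than in knockout 3 (10.63). Within genotype, Car3 did move with Cfd (correlation of deviations from the genotype mean 0.88, with no test). Of the 3 tested markers none passed by limma and 2 had an unadjusted p under 0.05; the log2 fold changes were 0.74 (SE 0.34) for Fabp4, -0.49 (SE 0.35) for Car3 and 3.36 (SE 1.19) for Cidec, which like Cfd passed the filter only through knockouts. The part of fat tissue in the Cfd values was not tested.

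**Figure D2:**
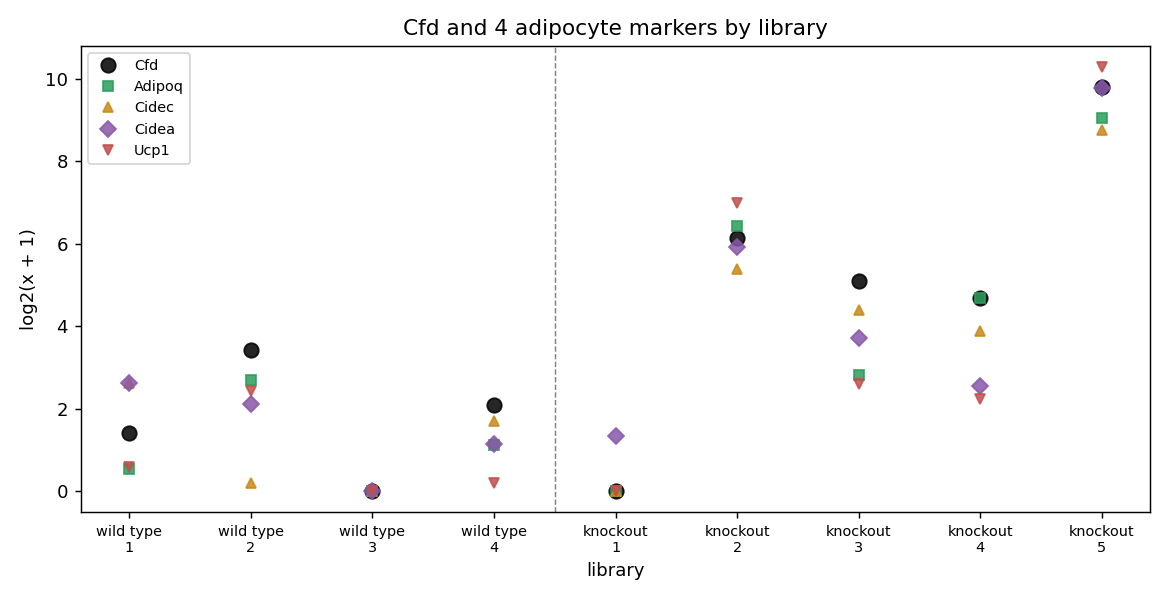
Cfd (black circles) and 4 adipocyte markers in each library, as log2(x + 1), with wild type to the left of the dashed line. All 5 genes are highest in knockout 5 and next highest in knockout 2, and all 5 are at 0 in wild type 3.

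Among the soluble inhibitors, factor I rose. Cfi (chromosome 3, 129835884 to 129875332, plus strand) measured 5.67, 3.26, 4.14 and 4.82 across the 4 wild types, against 6.82, 6.255, 6.88, 6.28 and 6.08 across the 5 knockouts. Every knockout lay above every wild type, and the wild types varied more among themselves (SD 1.02, n = 4) than the knockouts (SD 0.36, n = 5). An x of 10 was reached in 3 of 4 wild types, with wild type 2 at 8.61, and in all 5 knockouts. The wild types alone would not have met the filter. The log2 fold change came to 1.99 (SE 0.38, limma adjusted p = 0.00147), a 3.97-fold higher level on the log2(x + 1) scale. Cfi was called in each of the 21 alternatives that kept it, with log2 fold changes from 1.59 to 2.44.

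Cd55 had the largest decrease of the members. The gene (chromosome 1, 130439027 to 130462744, minus strand) measured 7.43, 6.76, 6.54 and 6.62 across the 4 wild types, against 4.50, 5.18, 3.01, 5.07 and 4.83 across the 5 knockouts. The genotypes did not overlap, and knockout 3 was the lowest library. The log2 fold change was -2.32 (SE 0.38, limma adjusted p = 0.000368), a 4.99-fold lower level, and -1.94 to -2.49 with any 1 library left out. Exons of Cd55 overlap the antisense transcript Gm16083 over 102 bases away from the 3′ end. Cd55b, which lies beside Cd55 on the same strand (130388537 to 130423009) and encodes a second decay-accelerating protein, was below the filter. It measured 3.47, 2.87, 3.56 and 3.05 across the 4 wild types, against 1.45, 1.48, 1.01, 2.14 and 1.76 across the 5 knockouts, again with no overlap, and has no test. Reads that the copies share cannot be assigned to 1 of them from these tables.

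Cd59a, which encodes the inhibitor of the membrane attack complex, rose by a small amount with little spread. The gene (chromosome 2, 104095801 to 104115354, plus strand) measured 10.83, 10.84, 10.94 and 10.99 across the 4 wild types, against 11.65, 11.50, 11.32, 11.38 and 11.17 across the 5 knockouts. No knockout was as low as the highest wild type, and the narrowest gap was between knockout 5 at 11.17 and wild type 4 at 10.99. The fitted log2 change was 0.50 (SE 0.11, limma adjusted p = 0.00320), 1.42-fold higher. It was called in all 22 alternatives, with log2 fold changes from 0.44 to 0.61. Its copy Cd59b had a log2 fold change of 0.11 (SE 0.32, 95% interval -0.57 to 0.78, adjusted p = 0.870).

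Cd46, which in mice is made mainly in testis, was barely read in this kidney RNA. The gene (chromosome 1, 195036826 to 195092249, minus strand) measured 0.15, 0.05, 0 and 2.63 across the 4 wild types, against 0, 1.49, 4.53, 1.72 and 1.78 across the 5 knockouts. In 4 of 9 libraries x was below 0.5, which is taken as no read, and only knockout 3 reached an x of 10. No fold change is given. Its 3′ end lies within exons of A330023F24Rik on the other strand. Cr1l, which encodes Crry, the rodent membrane inhibitor with the functions of CD46 and CD55, was at 8.47 to 9.18 in wild type and 8.82 to 9.08 in knockout, with a log2 fold change of 0.02 (SE 0.14, 95% interval -0.28 to 0.31, limma adjusted p = 0.959).

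**Figure D3:**
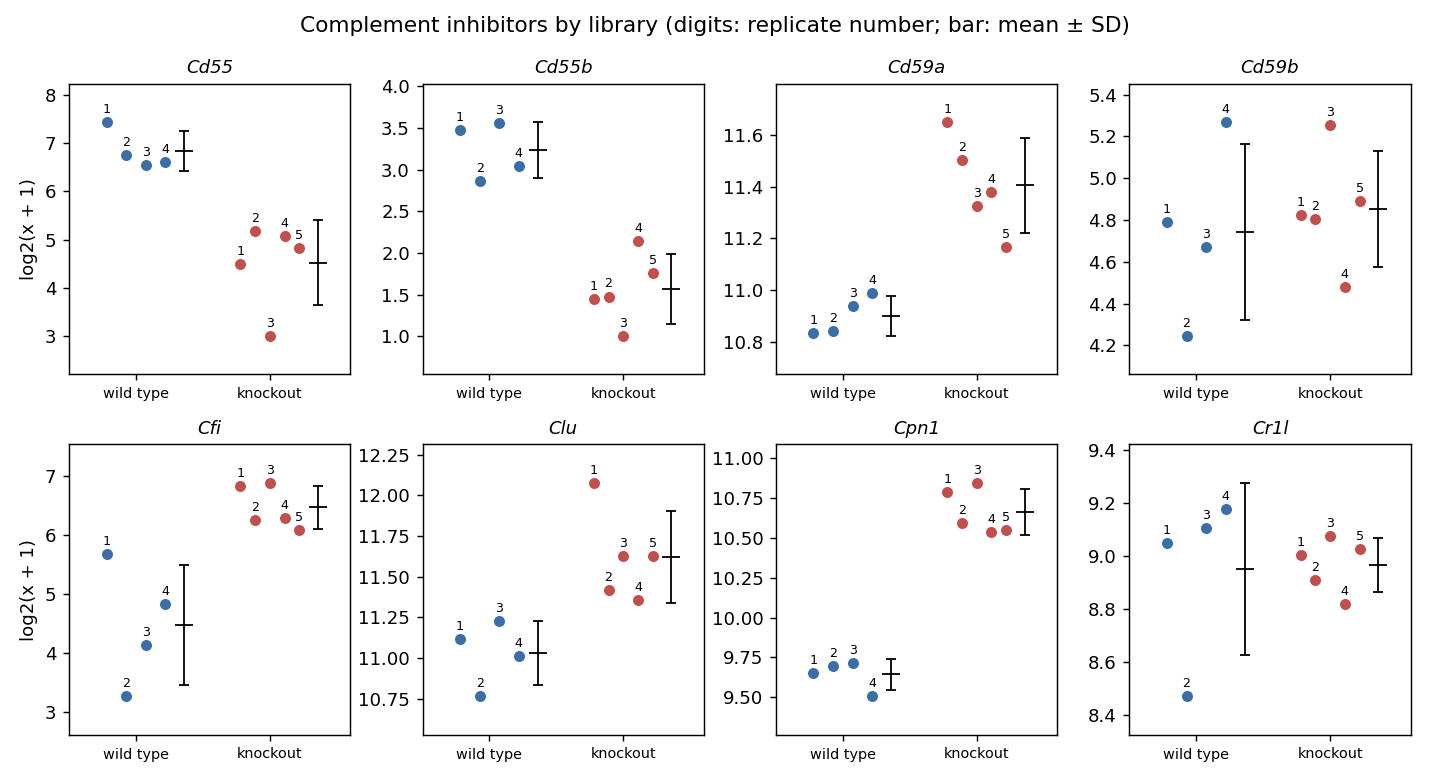
Level, log2(x + 1), of 8 complement inhibitors in wild-type (blue) and knockout (red) libraries; digits are replicate numbers and bars the mean ± SD. Cd55 and Cd55b are lower in every knockout, Cd59a, Cfi, Clu and Cpn1 are higher in every knockout, and Cd59b and Cr1l overlap. The 8 are a selection, and Cd55b was below the filter. Of 7 tested soluble inhibitors 3 were higher in every knockout. Of 5 tested membrane inhibitors 1 was higher and 1 lower in every knockout. Over all tested genes 14.3% did not overlap.

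C1s1, the gene once named C1s, encodes the C1 protease that cuts C4 and C2. It lies on chromosome 6 (124530345 to 124542359, minus strand) and measured 7.02, 7.13, 6.80 and 7.39 across the 4 wild types, against 7.35, 7.02, 7.25, 7.38 and 7.30 across the 5 knockouts. The ranges overlapped. Its exons overlap the antisense transcript Gm16567 away from the 3′ end. Its log2 fold change was 0.18 (SE 0.16, 95% interval -0.17 to 0.52, limma adjusted p = 0.533), and it was called in none of 22 alternatives.

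The rest of the pathway was read from a list of 51 other complement genes, of which 50 had a row and 32 were tested. Of these 3 rose and 3 fell, around a median log2 fold change of 0.07, against 14.4% called over all genes. Fcnb, Colec10 and Vsig4 were at 0 in all libraries. Those that rose were Cpn1 (1.02, SE 0.10, limma adjusted p = 1.80e-06), the carboxypeptidase that trims C3a and C5a, Clu (0.59, SE 0.14, adjusted p = 0.00623), or clusterin, a fluid-phase inhibitor of the terminal complex, and Mbl2 (1.42, SE 0.42, adjusted p = 0.0308), a mannose-binding lectin. Those that fell were C8a (-1.51, SE 0.21, adjusted p = 9.13e-05), a chain of the membrane attack complex, Mbl1 (-1.71, SE 0.40, adjusted p = 0.00696), the other mannose-binding lectin, and C1rl (-0.58, SE 0.15, adjusted p = 0.0114), a C1r-like protease.

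Cpn1 lay at 9.505 to 9.715 in wild type and 10.54 to 10.85 in knockout, and Clu at 10.76 to 11.23 and 11.36 to 12.08, so neither overlapped. The lectin genes went in opposite directions. Mbl1 measured 6.403, 7.01, 5.805 and 4.65 across the 4 wild types, against 4.62, 3.97, 4.10, 3.98 and 4.602 across the 5 knockouts, so the lowest wild type was just above the highest knockout. Mbl2 measured 4.22, 4.47, 2.77 and 3.53 across the 4 wild types, against 4.83, 4.805, 5.40, 6.16 and 4.67 across the 5 knockouts. Again no knockout was as low as the highest wild type. An x of 10 was reached in 3 of 4 wild types and in all 5 knockouts, so here too the wild types alone would not have met the filter. Mbl2 lost its call in 10 of 21 alternatives, with adjusted p of 0.0514 to 0.233 in those; 4 of these each left out a single library, namely wild type 3 (0.100), wild type 4 (0.0736), knockout 3 (0.0722) and knockout 4 (0.0923). C8a measured 9.03, 8.27, 9.11 and 9.12 across the 4 wild types, against 7.55, 7.94, 7.33, 6.78 and 7.29 across the 5 knockouts. Clu did not pass without the variance trend (0.0522), nor did C1rl (0.0538), and C1rl also failed without knockouts 2 and 5 (0.107).

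Summed over all members of a role, levels per 1000000 adjusted reads were 409.6 to 481.6 in wild type and 618.3 to 712.6 in knockout for soluble inhibitors, and 173.3 to 220.2 and 246.2 to 314 for membrane inhibitors. Convertase and alternative pathway genes summed to 338.6 to 490.1 and 165.2 to 257.4, and terminal genes to 55.74 to 73.37 and 39.4 to 51.35. These 4 sums did not overlap between genotypes and are weighted to their most abundant genes, such as Cfb. The highest knockout sum of the convertase and alternative pathway genes, 257.4, was in knockout 5, where Cfd was at an x of 898. The other knockouts lay at 165.2 to 239.4. Of all single tested genes 14.3% did not overlap. The membrane inhibitor sums are weighted to Cd59a (x of 1820 to 3210). They do not show the fall of Cd55 (x of 92.1 to 172 in wild type and 7.06 to 35.2 in knockout). The C1 and lectin sums (144.5 to 162.1 and 119 to 161.1) and the receptor sums (23.61 to 41.23 and 32.7 to 53.96) overlapped.

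Counts by role are to be read against the 6.16% of all tested genes called higher and the 8.20% called lower. A single call in lists this short is no result about the role. The C1 and lectin genes had 12 tested members, of which 1 rose and 2 fell. C1qa and C1qb, chains of the recognition protein C1q, had log2 fold changes of -0.10 (SE 0.21) and 0.03 (SE 0.18). Of 6 tested convertase and alternative pathway genes only Cfb passed; C2, the serine protease of the classical convertase, was at -0.32 (SE 0.16, limma adjusted p = 0.198). Of 3 tested terminal genes 1 fell, with C8g at 0.14 (SE 0.14) and C7 at -0.73 (SE 0.79). Of 7 tested soluble inhibitors 3 rose (Cfi, Cpn1 and Clu), with Serping1, the C1 inhibitor, at 0.23 (SE 0.14). The lists were chosen with earlier results of these data known and Cfi is a member, so this count is no support for a difference. Of 5 tested membrane inhibitors 1 rose and 1 fell. None of 6 tested receptors passed by limma and 1 had an unadjusted p under 0.05, with Cd93 at 0.27 (SE 0.21) and Cr2, the C3d receptor, at 1.02 (SE 0.37, adjusted p = 0.0782).

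**Figure D4:**
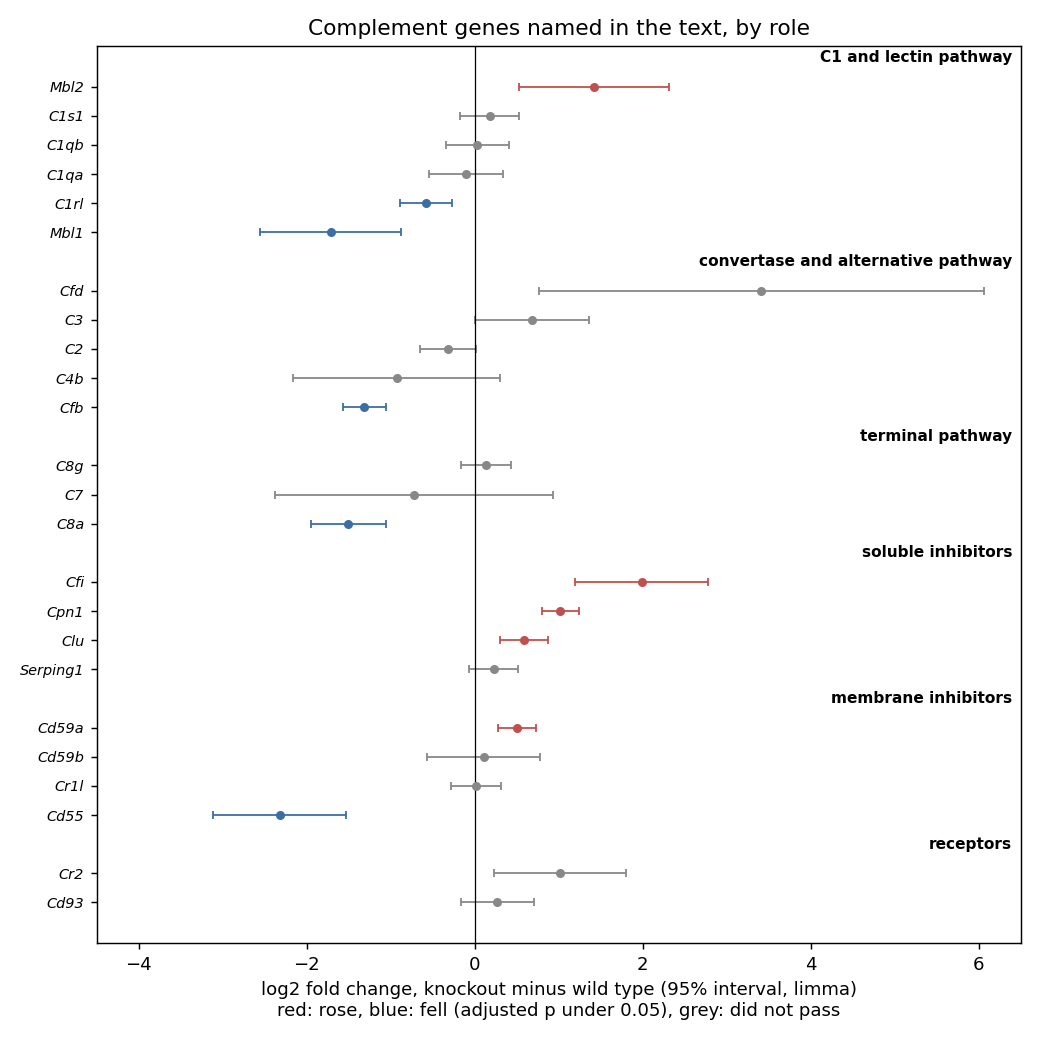
Log2 fold change, knockout minus wild type, with 95% intervals from limma, of the tested complement genes named in the text, grouped by role; red rose, blue fell and grey did not pass. Of 7 tested soluble inhibitors 3 rose, against 6.16% of all tested genes. The lists were chosen with earlier results of these data known and Cfi is a member, so this count is no support for a difference. Cd55, Mbl1, C8a and Cfb lie at -2.32, -1.71, -1.51 and -1.31.

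Genes that inflammation induces together with complement were counted next. Of 6 tested acute phase genes 5 rose, median 2.05, against 6.16% of all tested genes called higher. The 5 were Lbp, Cp and the chains of fibrinogen, Fga, Fgb and Fgg. Cp (ceruloplasmin) was at 1.96 (SE 0.16) and Fgg at 3.13 (SE 0.21), while the serum amyloid genes Saa1 and Saa2 and Itih4 were at 0 in all libraries. Fga reached an x of 10 in only 1 wild type and in 5 knockouts. The knockouts alone carried it past the filter, so its call is no support for a difference. None of 14 tested interferon targets passed by limma and 1 had an unadjusted p under 0.05, median 0.19, with Ifit3 at 0.39 (SE 0.15) and Irf1 at 0.24 (SE 0.18). Of 11 tested NF-κB targets 1 rose, Nfkbia (0.87, SE 0.16, limma adjusted p = 0.00132), the NF-κB inhibitor. Against 6.16% of all tested genes, this single call is no result about the list. Nfkb2 was at -0.03 (SE 0.24) and Il6 at 0. Alb, from the hepatocyte list, fell by 2.02 (SE 0.25), while Apoa2 of the same list rose by 1.45 (SE 0.20). The other tested genes of that list did not pass. Alb and Apoa2 were named after their values were seen.

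Markers of other cell types in the kidney are given beside these values, and each count is to be read against the 6.16% of all tested genes that were called higher and the 8.20% called lower; a single call in lists this short is no result about the list. Macrophage markers, the usual company of C1q, had 1 of 9 tested members lower, and sums of 233.6 to 300.4 per 1000000 in wild type and 220 to 323.8 in knockout; H2-Ab1 (-0.09, SE 0.14) and Cd74 (0.01, SE 0.17) did not pass. Proximal tubule markers had 2 of 8 lower and none higher, median -0.37, with sums of 6962 to 9828 in wild type and 5793 to 7309 in knockout. Endothelial markers had 3 of 8 higher (344.1 to 595.8 per 1000000 against 265.7 to 357.4 in wild type), fibroblast markers 2 of 8 (299.1 to 485.3 against 235 to 262.7) and urothelial markers 5 of 6 (21.37 to 81.28 against 4.136 to 12.85). Of the urothelial 5, Krt15 passed the filter only through knockout libraries and Upk1b reached an x of 10 in 1 wild type, so this count is no support for a difference. Distal nephron markers had 3 of 6 higher (1774 to 2484 against 1396 to 2844), podocyte markers 1 of 6 (282.6 to 352.6 against 209 to 270), and hepatocyte markers 1 of 6 higher and 1 lower (306.4 to 654.7 against 416.3 to 675.1), with Tat at 0. No call was made among 1 tested lymphocyte, 2 neutrophil, 1 adrenal and 6 globin genes by limma, and all 6 globin genes had an unadjusted p under 0.05, with globin sums of 8966 to 35550 against 6194 to 15410. Lymphocyte sums were 1.694 to 5.491 against 2.443 to 4.709, and neutrophil sums 6.274 to 41.96 against 3.541 to 29.15. Mpo and Cyp11b1 were at 0. The part of these cell types in the complement values was not tested.

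The genes most like each member were ranked by Pearson correlation of deviations from the genotype mean over the 9 libraries, among 9827 or 9828 genes with a mean of at least 6. These are the top values of a long ranking over few libraries and have no test. For Cfb they were Rpn1, Nars and Gnl2 (each 0.99), and for Cd59a Cckar (0.98), Slc7a13 (0.96) and Bmp4 (0.95). For Cfi they were Rdh16 (0.98), Ackr3 (0.97) and Ldlrad3 (0.96), and for Cd55 Cops3 (0.94), Efcab2 (0.93) and Pex7 (0.93). For C3 they were Rap2a (0.95), Tgtp2 (0.92) and Ubl3 (0.91), for C4b Zfp60 (0.97), Scnm1 (0.94) and Rnaseh2c (0.91), and for Cfd Edc4 (0.94), Acvrl1 (0.93) and Snx10 (0.92). C3, C4b, Cfd, Cfi and Cd55 lay below the minimum mean themselves and so could not appear in the ranking of another member. Between members, the same correlation over the 9 libraries was highest for Cfb with Cd59a (0.77) and lowest for Cfd with Cd59a (-0.82) and Cfd with Cfb (-0.80), again with no test. Most adipocyte markers were below the minimum mean and so were not ranked for Cfd. Of those that were ranked, Car3 came at rank 8 for Cfd (0.88) and Fabp4 was not among the first 10.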

How the data were processed

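Kidney RNA of 4 wild-type and 5 Bmal1 knockout libraries was profiled with the Lexogen QuantSeq kit, per the labels' protocols. The authors deposited log2 values, log2(x + 1) with 3 decimals, 1 table per library. Per the submitters' processing notes, Bowtie2 and bedtools were used with mm10. How reads were normalized, annotated and assigned to a strand is not given in the sources used here. Judged by the tables, x lies in bands near whole numbers that shift with library and gene, so it was not treated as a count, and values of x below 0.5 were taken as no read.

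The deposited log2 values went into limma 3.58.1 (R 4.3.3; moderated test with a mean-variance trend, genotype the only term, two-sided, Benjamini-Hochberg over 13481 genes with x of at least 10 in at least 4 libraries, threshold 0.05). Fold changes are differences of log2(x + 1) and understate change near the floor. On simulated data for this comparison with 13481 genes, 41.8% of 67 genes changed 1.5-fold, 64.2% of 67 changed 2-fold and 92.4% of 66 changed 4-fold were recovered. Only these genes were changed, with normal noise, and 136 were called, 4 of them falsely. The data had 1937 calls, so these shares need not hold for the real test. List sums are x per 1000000 of the library's total x. Positions are from GENCODE M21 (GRCm38, the assembly of mm10).

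The members and lists were chosen with earlier results of these data known. Named genes were the members, other complement genes that passed with the 2 highest of each role that did not (1 of these is not reported here), the 3 genes most like each member, and of other lists the 2 highest members or those at 0, as far as a result touched them; others named beside Cfd, Cd55, Cd46 and the acute phase and urothelial lists were chosen after their values were seen. Alternatives covered filters, pseudocount, scaling, variance trend, covariates, the replicate block and left-out libraries.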

Additional observations from a re-analysis of the deposited data

Results flagged for a closer look

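In the 16 combinations of member and genotype that could be checked, a single library stood far from the rest of its group in 2; chance gives about 1 in 20. C3 in wild type 4 was at 6.78, while the other wild types lay at 5.08 to 5.26. Cd46 in wild type 4 was at 2.63, while the other wild types lay at 0 to 0.15.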

How the results depend on the processing

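Cfb, Cfi, Cd55 and Cd59a kept their direction and their call in every alternative that tested them. With x of at least 10 required in all 9 libraries 3 members were tested and 2 were called, since that filter removes Cfi and Cd55; otherwise 4 or 5 were called, and 4 to 5 with 1 library left out. The log2 fold change of C3 ranged from 0.52 to 1.09 with 1 library left out, and that of Cfd from 2.25 to 4.70. Without the variance trend 3 of the other complement genes were called in place of 6 (5 to 7 with 1 library left out). Over all genes 1937 were called, 1426 to 2277 with 1 library left out, 1209 with globin as a covariate and 1068 without knockouts 2 and 5, the last chosen after seeing the data; the cause was not tested. The share of called genes that were higher was 42.9% as deposited and up to 64.7%, the latter with scaling to the total without Rn45s, which moved the median of all genes to 0.105. With the replicate number as a block, 1738 genes, 4 members and 6 other complement genes were called. Mbl2 lost its call there (adjusted p = 0.0514), and knockout 5, with no wild type of its number, drops out of the contrast. Deviations of same-numbered libraries correlated at 0.151, 0.001, -0.007 and 0.041, so the numbers are not taken as pairs. The raw depth is unknown, which limits what can be said of Cd46, Cd55b and Cfd in wild type.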
